A study of Mus musculus with 19 samples.

Results

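The RNAs described here are those transcribed from the mitochondrial genome. They were taken as every row of the count table whose gene name starts with mt-, and they were kept apart by the biotype given in the table. There were 37 of them among 54532 genes, namely 13 mRNAs (mt-mRNAs), 2 rRNAs (mt-rRNAs) and 22 tRNAs (mt-tRNAs), and all 37 lay on chromosome MT of GRCm38. RNA was sequenced from 19 whole left kidneys collected on day 12 after unilateral ureteral obstruction (UUO), a surgical model in which a ureter is tied off and tubular injury and fibrosis follow. All mice were male, on a C57BL/6J background, 8 to 9 weeks old and perfused with heparin, and the labels give all kidneys as obstructed. The groups were WT mice given PBS (WT PBS, n = 5), WT mice given recombinant CD5L (WT rCD5L, n = 5), mice without the Cd5l gene given PBS (KO PBS, n = 4) and the same knockout given recombinant CD5L (KO rCD5L, n = 5). Recombinant CD5L (rCD5L) or an equal volume of PBS was injected into the peritoneum every day, at 0.5 mg of protein per mouse. CD5L is a circulating macrophage protein, and the series compares obstructed kidneys that lack it with kidneys that have it or receive it. No unobstructed kidney was used here, each group holds kidneys of separate mice, and the labels do not say whether WT and knockout mice were littermates. Each kidney had 17917491 to 23847090 counts in total, and Cd5l had 0 counts in each CD5L KO kidney and 3 to 15 in WT kidneys.

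The mitochondrial genome is a small circle that is copied many times in each cell. Both of its strands are transcribed into long precursors, which are cut at the tRNAs that stand between the mRNAs and rRNAs ("tRNA punctuation"). The mRNAs encode subunits of respiratory complexes I (the Nd genes), III (mt-Cytb), IV (the Co genes) and V (the Atp genes), the rRNAs form the mitochondrial ribosome, and the tRNAs serve it. All other respiratory subunits are encoded in the nucleus. In the kidney, the proximal tubule and the thick ascending limb are rich in mitochondria because they reabsorb solutes by active transport. In bulk tissue, fewer cells of a type and less RNA per cell cannot be told apart.

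Copies of mitochondrial sequence also lie in the nuclear genome, and reads from a gene with an identical copy cannot be placed by sequence. To find which of the 37 RNAs this touches, each gene was cut into all of its windows of 150 bases, the length of a read, and each window was looked up in the other transcripts of the GENCODE M21 annotation of GRCm38. The tRNAs, which are shorter than a read, were looked up whole. For mt-Co2, mt-Atp6, mt-Co3, mt-Nd3 and mt-Nd4l, between 96.98% and 99.84% of the windows occurred unchanged in another annotated transcript. The share was 59.15% for mt-Nd4 and 23.64% for mt-Co1. It was 0 for mt-Nd1, mt-Nd2, mt-Nd5, mt-Nd6, mt-Cytb and mt-Atp8, for both rRNAs and for all 22 tRNAs. Nuclear sequence outside annotated transcripts was not searched, so a share of 0 does not exclude a copy there. The copies Gm28661, Gm10925, Gm28437, Gm28438, Gm28439 and Gm29216 are pseudogenes that lie close together on the minus strand of chromosome 1. The windows of mt-Nd4l occurred in Gm10222, and some of those of mt-Co2 in Gm13341 as well as in Gm28661. Gm28661 (chr1:24614885-24615565) matched mt-Co2 over 681 bases with 0 mismatches, and Gm28437 (chr1:24613189-24613971) matched mt-Co3 over 783 bases with 0 mismatches. The substitutions found were T3C between mt-Nd3 and Gm28438 and A1066T between mt-Co1 and Gm29216, with the mitochondrial base first and positions counted from the first base of the mitochondrial gene. Both pairs are printed to show how little separates a mitochondrial gene from its copy, with the substituted base in capitals. The stretches are chrMT:9459-9491 (plus strand) and chr1:24613087-24613119 (minus strand) for the first pair, and chrMT:6390-6423 (plus strand) and chr1:24616155-24616188 (minus strand) for the second.
mt-Nd3: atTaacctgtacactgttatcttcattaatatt
Gm28438: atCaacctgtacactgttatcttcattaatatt
mt-Co1: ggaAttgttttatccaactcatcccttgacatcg
Gm29216: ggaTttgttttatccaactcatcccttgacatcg

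Neighbouring mitochondrial genes also share bases. The last 43 bases of mt-Atp8 (chrMT:7927-7969) are the first 43 of mt-Atp6, and 7 bases are shared by mt-Nd4l and mt-Nd4, on the same strand. On opposite strands, mt-Nd5 and mt-Nd6 share 14 bases. The 2 ends on the plus strand are printed with the shared bases in capitals (chrMT:7907-7969 and chrMT:10147-10173), since reads over them belong to both genes.
mt-Atp8: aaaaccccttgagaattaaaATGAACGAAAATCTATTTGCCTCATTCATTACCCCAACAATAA
mt-Nd4l: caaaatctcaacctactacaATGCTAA

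Of the tRNAs, 5 are shown whole because the comparisons turn on them, and the capitals mark the anticodon, found as the centre of a loop of 7 bases closed by a paired stem. They are the tRNAs for asparagine (mt-Tn, chrMT:5089-5159), proline (mt-Tp, chrMT:15356-15422), glutamate (mt-Te, chrMT:14071-14139) and tyrosine (mt-Ty, chrMT:5260-5326), all on the minus strand, and for glycine (mt-Tg, chrMT:9391-9458) on the plus strand.
mt-Tn: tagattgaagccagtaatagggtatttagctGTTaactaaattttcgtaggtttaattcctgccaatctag
mt-Tp: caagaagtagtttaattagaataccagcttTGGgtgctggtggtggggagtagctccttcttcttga
mt-Te: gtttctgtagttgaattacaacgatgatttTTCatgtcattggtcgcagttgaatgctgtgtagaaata
mt-Ty: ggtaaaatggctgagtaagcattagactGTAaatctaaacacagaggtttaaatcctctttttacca
mt-Tg: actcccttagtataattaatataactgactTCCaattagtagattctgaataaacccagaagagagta

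The level of each RNA per length was compared as FPKM, the authors' count scaled by gene length and library size. mt-Co1, the catalytic subunit of complex IV, was at the top with a median of 6766 FPKM over the 19 kidneys. It was followed by mt-Cytb (4033 FPKM), mt-Nd1 (3280), mt-Nd2 (1547), mt-Nd6 (1475), mt-Nd4 (1380) and mt-Nd5 (1127). The 5 mRNAs whose windows were nearly all shared with nuclear copies lay far lower, at 121 FPKM for mt-Co2, 53.6 for mt-Co3, 53.6 for mt-Nd3, 33.9 for mt-Atp6 and 13 for mt-Nd4l. mt-Atp8, which encodes a small subunit of complex V, was at 0.955 FPKM. None of its windows was found in another annotated transcript, the only sequence searched. Its 43 last bases belong to mt-Atp6 as well. So the levels of the 13 mRNAs fell into a group of 7 above 1000 FPKM and a group of 6 at or below 121 FPKM, by their medians. How reads with several matches were counted is not stated in the sources used here, and its part in the low levels was not tested.

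**Figure D1:**
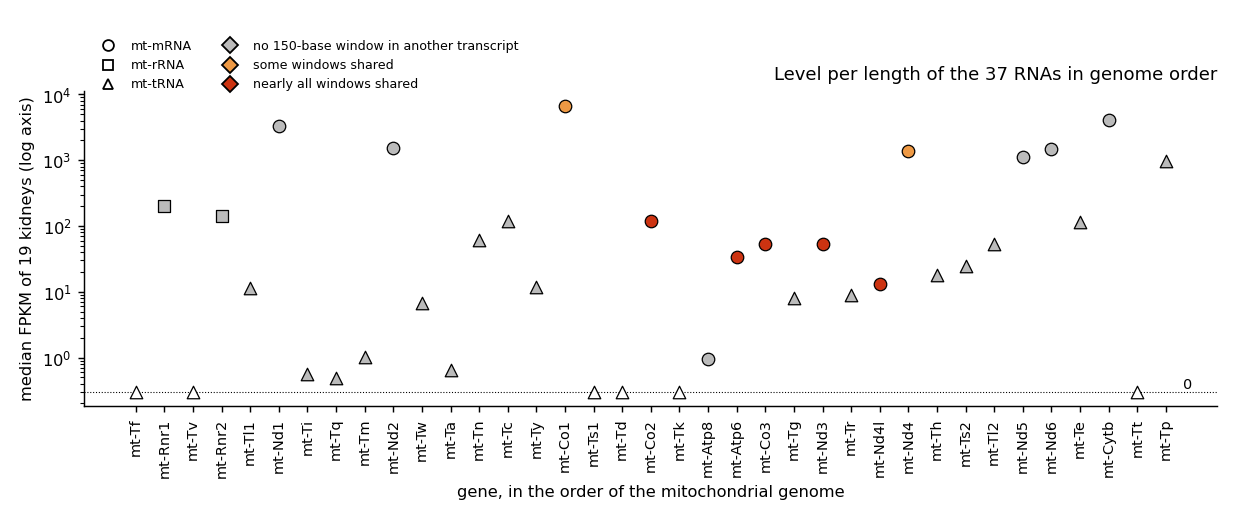
Median FPKM over 19 kidneys (log axis) of the 37 mitochondrial RNAs in genome order, with mRNAs as circles, rRNAs as squares, tRNAs as triangles, colour for the share of 150-base windows found in another annotated transcript, and white symbols on the dotted line for a median of 0. The red mRNAs, with nearly all windows shared, lie between 13 and 121 FPKM, and the mRNAs with no or some windows shared lie above 1000 FPKM apart from mt-Atp8 at 0.955.

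Counts were also assigned to the copies. Over all kidneys, mt-Co2 had 58191 counts and its copy Gm28661 had 52174. mt-Atp6 had 14296 and Gm10925 had 13891, whereas mt-Nd3 had 11465 and Gm28438, which differs from it by T3C, had 1498. For mt-Co2, the share of the pair's counts given to the mitochondrial gene lay between 44.3% and 64.7% in 18 kidneys, and it was 68.4% in KO rCD5L kidney 4. The sum of gene and copy was still low, with a median of 215 CPM for the mt-Co2 pair and 25.1 CPM for the mt-Nd3 pair over those 18 kidneys, against 2857 CPM or more of mt-Nd1 in each kidney.

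The mt-rRNAs lay far below the highest mt-mRNAs in these libraries. The authors' methods do not say whether mRNA was selected or rRNA removed before sequencing. The part of such a step in the levels of the classes was not tested. mt-Rnr1, the small-subunit rRNA (12S), had a median of 199 FPKM, and mt-Rnr2, the large-subunit rRNA (16S), had 141. Among the tRNAs, mt-Tp was at 984 FPKM and held 66.1% of all mt-tRNA counts. It was followed by mt-Tc at 118 FPKM, mt-Te at 114 and mt-Tn at 61.3, all of them on the minus strand, and mt-Tl2 at 52.7 was the highest of the 14 tRNAs on the plus strand. mt-Tf, mt-Tv, mt-Td and mt-Tk had 0 counts in every kidney, mt-Ts1 had 1 count in all, and mt-Tt had 12. The strand setting of the counting is not stated, so reads of a tRNA and of the precursor that runs opposite to it cannot be told apart. The same holds for mt-Nd6, whose level may include reads of the other strand.

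As for the classes, mt-mRNAs held 97.8% of the counts of the 37 RNAs, mt-rRNAs 1.85% and mt-tRNAs 0.355%. Levels between kidneys were compared as CPM, counts scaled to a common library size after TMM scaling over the 19 kidneys. The summed mt-mRNA level ranged from 25820 to 38070 CPM in WT PBS kidneys (median 29310) and from 21760 to 29160 in WT rCD5L kidneys (median 25480). It ranged from 32490 to 46080 CPM in KO PBS kidneys (median 37240) and from 29640 to 147800 in KO rCD5L kidneys (median 31840). KO PBS kidneys thus had the highest median, and WT rCD5L kidneys the lowest. All 4 KO PBS kidneys lay above 4 of the 5 WT PBS kidneys, the exception being WT PBS kidney 3 at 38070.

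**Figure D2:**
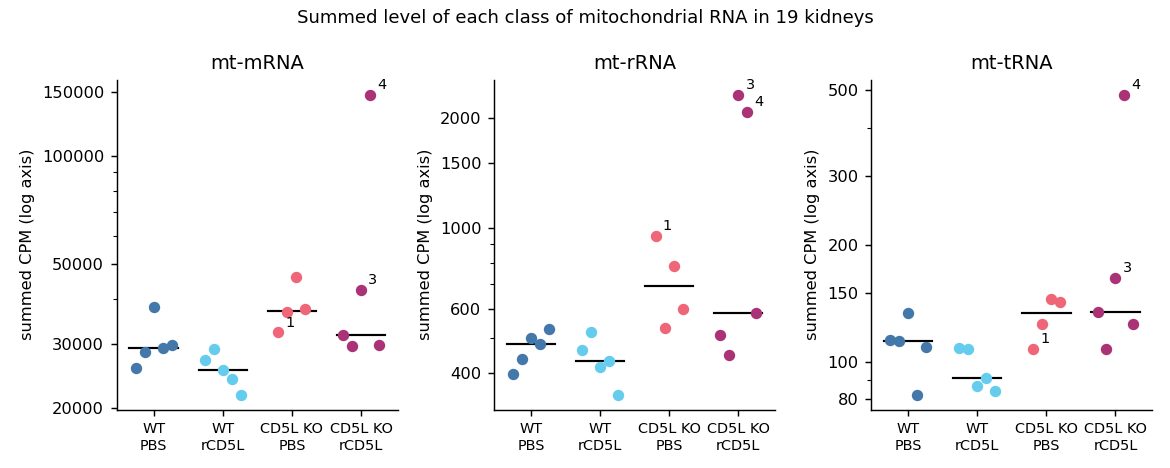
Summed CPM (log axis) of the 13 mt-mRNAs, 2 mt-rRNAs and 22 mt-tRNAs in each of 19 kidneys, with a point per kidney, a line at the median of each group, and numbers beside KO PBS kidney 1 and KO rCD5L kidneys 3 and 4. KO rCD5L kidney 4 is at 147800 CPM for mt-mRNAs, and kidneys 3 and 4 are at 2312 and 2079 CPM for mt-rRNAs.

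Before the groups are compared, 3 kidneys have to be set apart. In KO rCD5L kidney 4, mitochondrial RNA took 10.08% of all counts as mt-mRNA, against 2.30% to 4.46% in the other 18 kidneys. In this kidney, mt-Co1 was at 58190 CPM and the other KO rCD5L kidneys were between 12720 and 17580. mt-Co2 was at 1221 CPM, against 90.98 to 138.1 in the others of its group. mt-Co3, a further subunit of complex IV, was at 631.3 CPM against 48.35 to 85.05. Compared with the median of KO rCD5L kidneys 1, 2 and 5, mt-Co1 was 4.42-fold and mt-Cytb 5.15-fold higher, and the 2 rRNAs were 3.84-fold and 4.30-fold higher. mt-Co2, mt-Co3 and mt-Te stood further out, at 13.4-fold, 12.4-fold and 10-fold. The makeup of the mt-mRNA counts differed as well, since mt-Co2 made up 0.826% of them in this kidney and at most 0.664% in any other, and mt-Co3 0.427% and at most 0.315%.

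Markers of cell types moved with KO rCD5L kidney 4. The 14 proximal tubule markers (such as Lrp2, Slc34a1 and Slc5a2) summed to 61800 CPM, against 3690 to 10400 in the other 18 kidneys, and the 5 thick ascending limb markers to 5700 against 1740 to 3450. The 9 fibroblast and myofibroblast markers summed to 1300 CPM against 2450 to 5340, the 7 macrophage markers to 720 against 1800 to 2850, and the 5 markers of injured tubules to 663 against 1570 to 2170. The part of these cell types in the mitochondrial RNA level was not tested. Tubule markers were thus above, and markers of fibrosis, macrophages and tubular injury below, every other kidney of the series. Whether this kidney was obstructed like the others cannot be told from these data. The main values that rest on KO rCD5L kidneys are therefore also given without it.

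The other 2 kidneys stood apart in the ratio of mt-rRNA to mt-mRNA. KO rCD5L kidney 3 had 5.43 mt-rRNA counts per 100 mt-mRNA counts and KO PBS kidney 1 had 2.93, and the other 17 kidneys had 1.31 to 1.94. In kidney 3, mt-Rnr1 was 4.16-fold and mt-Rnr2 4.88-fold above the median of KO rCD5L kidneys 1, 2 and 5, whereas mt-Co1 was 1.34-fold and mt-Nd6, on the opposite strand, 1.09-fold above it. CT010467.1, Rn7sk and Lars2 stood out in the same kidneys. CT010467.1, annotated as an rRNA gene at chr17:39846353-39848827 (minus strand), had 144461 counts in KO rCD5L kidney 3 and 68552 in KO PBS kidney 1. It had 14606 to 24155 counts in the other 3 KO PBS kidneys and 6256 to 12768 in the 10 WT kidneys. The other 4 KO rCD5L kidneys had 6884, 10255, 8643 and 8012 counts, within the WT range of these unscaled counts. After scaling, the sum of CT010467.1 and Gm26917 was 720 CPM in KO rCD5L kidney 4, above the WT range of 329 to 621. Rn7sk, a small nuclear RNA made by RNA polymerase III, was at 106 and 54.6 CPM in the same 2 kidneys, at 9.77 to 13.9 in the other KO PBS kidneys, at 1.84 to 3.37 in the other KO rCD5L kidneys and at 1.63 to 5.04 in WT kidneys. These genes were chosen after the values were seen. KO rCD5L kidney 3 also had 48.3 summed CPM of the 5 skeletal muscle markers, and the other 18 kidneys had 0.671 to 2.23. Its epididymis marker sum of 53.2 CPM was the highest of the series. Apart from kidney 4, it had the highest sums of proximal tubule markers (10400 CPM) and of nuclear subunits of complexes I and IV (4760 and 4130 CPM). The part of these in its mitochondrial RNA levels was not tested.

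**Figure D3:**
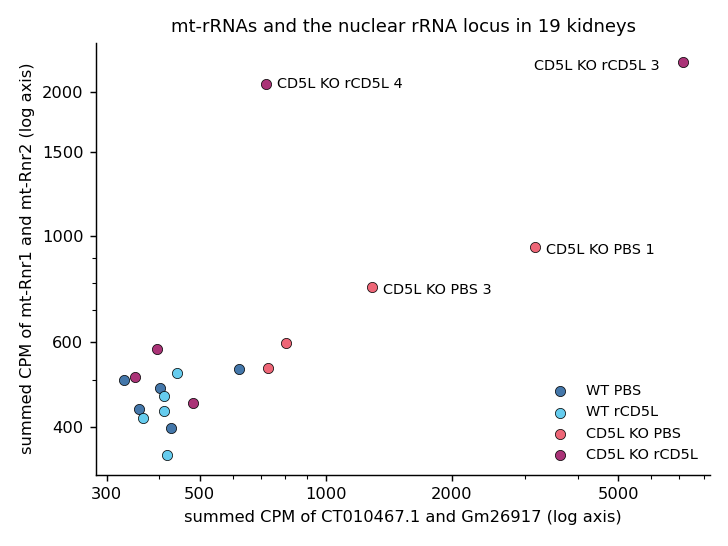
Summed CPM of mt-Rnr1 and mt-Rnr2 against the summed CPM of 2 genes of the rRNA locus on chromosome 17, CT010467.1 and Gm26917, in 19 kidneys (both axes log), coloured by group. The KO PBS kidneys lie between 728 and 3160 CPM on the horizontal axis and the WT kidneys between 329 and 621, and KO rCD5L kidney 4, with 2079 CPM of mt-rRNA, is at 720 CPM of the locus, above the WT kidneys and below the lowest KO PBS kidney.

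The first comparison asked whether the loss of CD5L goes with another level of mitochondrial RNA in obstructed kidneys given PBS. Both mt-rRNAs, mt-Co1 and mt-Co3 were higher in KO PBS than in WT PBS kidneys, and mt-Tn was lower. Of the 37 RNAs, 26 had enough counts to be tested, and 5 of them had an adjusted p-value under 0.05, 4 higher and 1 lower in CD5L KO kidneys. Over all 17579 genes tested, 10.5% passed, 5.13% higher and 5.40% lower. All 12 mt-mRNAs tested had positive log2 fold changes, with a median of 0.297 and a range of 0.18 to 0.55, and the median over all genes was -0.00464. At an unadjusted p under 0.05 there were 8 of the 12, and 26.6% of all genes.

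The largest increases among the called RNAs were those of the ribosome. mt-Rnr1 had 399.7, 256.6, 359.4 and 280.6 CPM in the KO PBS kidneys and 184.9, 201.8, 225.3, 221.9 and 235.4 in the WT PBS kidneys. The lowest KO PBS kidney was above the highest WT PBS kidney. The means were 324 ± 66.9 (SD, n = 4) and 214 ± 20.3 CPM (SD, n = 5), and the log2 fold change was 0.59 with a standard error of 0.12 (Benjamini-Hochberg adjusted p = 0.0107 from the quasi-likelihood test of edgeR). mt-Rnr2 had 551.5, 274.8, 423.9 and 317.6 CPM in KO PBS kidneys and 213.5, 233.9, 275.0, 259.7 and 293.8 in WT PBS kidneys. KO PBS kidney 2 lay within the range of the WT PBS kidneys, and the other 3 lay above it. Its log2 fold change was 0.61 (standard error 0.17, adjusted p = 0.0386 from edgeR). KO PBS kidneys 1 and 3 were the highest of these groups in both mt-rRNAs and in CT010467.1, and each KO PBS kidney was above each WT PBS kidney in CT010467.1 counts. The part of the nuclear rRNA content in this result was not tested. mt-Rnr1 passed in 9 of 9 fits that left out 1 kidney and mt-Rnr2 in 4 of 9, and without KO PBS kidney 1 mt-Rnr2 was at 0.40 (adjusted p = 0.096). With KO PBS kidneys 1 and 3 both left out, neither passed, at 0.33 (adjusted p = 0.111) and 0.21 (adjusted p = 0.366).

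Complex IV gave the 2 mt-mRNAs that passed. mt-Co3 had 56.13, 72.27, 76.31 and 63.22 CPM in KO PBS kidneys and 42.14, 45.37, 54.92, 50.71 and 50.41 in WT PBS kidneys. These groups did not overlap, although KO PBS kidney 1 was close to WT PBS kidney 3. The log2 fold change was 0.45 (standard error 0.10, adjusted p = 0.0129 from edgeR), and it passed in 9 of 9 fits without 1 kidney. Since 99.84% of its windows are shared with Gm28437, the gene was set beside its copy, which was higher as well, at 0.52 (adjusted p = 0.0169). mt-Co1 had 14160, 16320, 20660 and 15810 CPM in KO PBS kidneys and 10950, 11970, 15360, 12080 and 12480 in WT PBS kidneys. Of the 4 KO PBS kidneys, 3 were above all WT PBS kidneys, and kidney 1 was below WT PBS kidney 3. Its log2 fold change was 0.41 (standard error 0.12, adjusted p = 0.0448 from edgeR), a call that was lost in 7 of 9 fits without 1 kidney, with adjusted p up to 0.106.

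Most other mt-mRNAs lay in the same direction without passing. For complex III, mt-Cytb had 5947 to 8459 CPM in KO PBS kidneys and 4718 to 7307 in WT PBS kidneys (log2 fold change 0.29, standard error 0.12, adjusted p = 0.155). For complex I, mt-Nd1 had 4253 to 5518 and 3475 to 4968 CPM (0.28, adjusted p = 0.106). mt-Nd6, which is read from the other strand, had 973.7 to 1216 and 836.5 to 1245 CPM (0.18, adjusted p = 0.329). The lowest WT PBS kidney was below all KO PBS kidneys in each of these 3 RNAs, and WT PBS kidney 3 was within or above the KO PBS range. For complex V, mt-Atp6 had 28.68, 39.14, 43.14 and 64.98 CPM in KO PBS kidneys and 24.32 to 41.38 in WT PBS kidneys, a log2 fold change of 0.55 (adjusted p = 0.118).

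Among the 12 mt-tRNAs tested, 7 were higher and 5 lower, with a median log2 fold change of 0.06. mt-Tn, the tRNA for asparagine, had 4.148, 4.195, 3.894 and 4.235 CPM in KO PBS kidneys and 6.500, 5.781, 8.932, 4.562 and 5.663 in WT PBS kidneys. The KO PBS kidneys were close to each other and all below the WT PBS kidneys. The log2 fold change was -0.62 (standard error 0.18, adjusted p = 0.0488 from edgeR), and it passed in 1 of 9 fits without 1 kidney, with values from -0.71 to -0.46. mt-Tc, its neighbour on the same strand, had 7.137 to 11.28 CPM in KO PBS kidneys and 7.298 to 10.98 in WT PBS kidneys, and did not separate them. mt-Tp had 81.20 to 103.1 CPM in KO PBS kidneys and 53.77 to 83.70 in WT PBS kidneys (0.36, adjusted p = 0.0642). In all, 3 of the 26 RNAs tested had groups that did not overlap (mt-Rnr1, mt-Co3 and mt-Tn), against 14.1% of all genes tested.

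The calls depended on the test, the design and the length of the genes. DESeq2 called 7 of the RNAs, adding mt-Nd1 and mt-Tp, and 11 passed with the replicate number as a block. These counts are not set beside the share over all genes called in either fit. mt-Tn was not among those 11 (adjusted p = 0.0651), and it also missed the threshold with RLE scaling (0.0502) and without the filter (0.0532). When the spread was estimated over all 19 kidneys together, none of the 26 RNAs passed and 12 genes passed in all. With an offset that removes the trend of the fold change on gene length, 2 RNAs passed (mt-Rnr1 and mt-Tn) and the median of the mt-mRNAs was 0.164.

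Markers of other cell types differed between these groups. Fibroblast and myofibroblast markers summed to 2510 to 3440 CPM in KO PBS kidneys and 3520 to 5340 in WT PBS kidneys, and the 6 endothelium markers to 589 to 649 and 707 to 796, so both were lower in each KO PBS kidney. The 5 urothelium markers summed to 169 to 279 CPM in KO PBS kidneys and 21.2 to 156 in WT PBS kidneys, without overlap, and the injured tubule markers to 1860 to 2150 and 1570 to 1920. The part of these cell types in the mitochondrial RNA levels was not tested. Proximal tubule markers overlapped. They summed to 4270 to 9100 CPM in KO PBS kidneys and 4480 to 9230 in WT PBS kidneys. KO PBS kidney 1, with the lowest marker sum of both groups, had 32490 CPM of mt-mRNA, and WT PBS kidney 3, with the highest, had 38070. Within each of these groups, the kidney with the highest marker sum had the highest mt-mRNA sum and the kidney with the lowest marker sum the lowest, as the plot of mt-mRNAs against tubule markers shows.

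**Figure D4:**
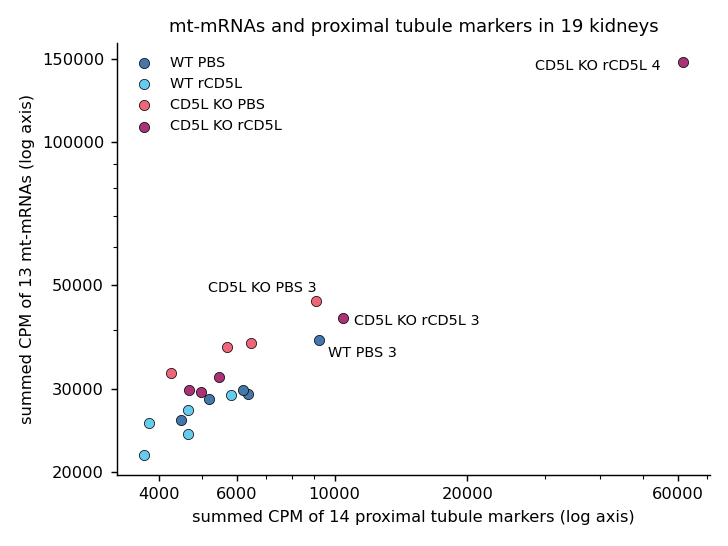
Summed CPM of the 13 mt-mRNAs against the summed CPM of 14 proximal tubule markers in 19 kidneys (both axes log), coloured by group. KO rCD5L kidney 4 is alone at 61800 and 147800 CPM, and the 4 KO PBS kidneys lie above WT kidneys that have similar marker sums.

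The second comparison asked what rCD5L did in CD5L KO kidneys. None of the 27 RNAs tested had an adjusted p-value under 0.05, and 0% of the 17467 genes tested did (edgeR). Of the 27 RNAs, 26 had positive log2 fold changes, with medians of 0.565 for the mt-mRNAs, 0.708 for the mt-rRNAs and 0.868 for the mt-tRNAs. The median of the mt-mRNAs turned on 1 kidney. Without KO rCD5L kidney 4, it was -0.178, and without kidneys 3 and 4 it was -0.336. Without kidney 4, the median of the mt-rRNAs was 0.42 and that of the mt-tRNAs 0.20, and without kidneys 3 and 4 they were -0.47 and -0.02. mt-Co1 had 13980, 12720, 17580, 58190 and 13160 CPM in KO rCD5L kidneys and 14160 to 20660 in KO PBS kidneys. Outside kidney 4, the treated kidneys lay within or below the PBS range, and the fitted difference of 0.45 on the log2 scale (standard error 0.46, adjusted p = 0.9003) became -0.22 (adjusted p = 0.763) without it.

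The other named mt-mRNAs changed sign in the same way. mt-Cytb was at 0.57, mt-Nd1 at 0.54, mt-Nd6 at 0.55 and mt-Atp6 at 0.31, and without KO rCD5L kidney 4 they were at -0.24, -0.11, -0.19 and -0.41. mt-Rnr1 was at 0.69 and mt-Rnr2 at 0.72. Without kidney 4 they were at 0.41 and 0.43, and without kidneys 3 and 4 at -0.40 and -0.55. The chromosome 17 rRNA locus moved with these values, at 728 to 3160 CPM in KO PBS kidneys, 7120 in KO rCD5L kidney 3 and 350 to 720 in the other KO rCD5L kidneys, and its part was not tested. The largest tRNA difference was that of mt-Te, with 10.06, 8.715, 8.073, 94.96 and 9.487 CPM in KO rCD5L kidneys and 5.140 to 18.46 in KO PBS kidneys. Only kidney 4 stood outside the PBS range, and the value of 1.15 became -0.36 without it.

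mt-Tn was the RNA whose treated and untreated knockout kidneys did not overlap. It had 6.080, 4.594, 5.045, 16 and 6.383 CPM in KO rCD5L kidneys and 3.894 to 4.235 in KO PBS kidneys. All 5 treated kidneys were above all 4 PBS kidneys, and 4 of them were within the WT PBS range of 4.562 to 8.932. The log2 fold change was 0.86 (standard error 0.36, unadjusted p = 0.0344, adjusted p = 0.897 from edgeR), and 0.42 without KO rCD5L kidney 4 (adjusted p = 0.763). It was 1 of 27 RNAs without overlap, against 2.38% of all genes, and 1 of 27 at an unadjusted p under 0.05, against 2.87% of all genes. The KO PBS kidneys are the same 4 in both comparisons, so their low mt-Tn values enter both differences.

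The third comparison, rCD5L against PBS in WT kidneys, held none of the kidneys set apart above. None of the 26 RNAs tested passed, and 0% of 17455 genes did (edgeR). Of the 12 mt-mRNAs tested, 11 had negative log2 fold changes and mt-Co3 was at 0.03, with a median of -0.231. At an unadjusted p under 0.05 there were 6 mt-mRNAs and 1 mt-tRNA, all lower with rCD5L, out of 26 RNAs, against 16% of all genes in either direction. mt-Nd1 had 3449, 4036, 3195, 3011 and 2857 CPM in WT rCD5L kidneys and 3475, 3736, 4968, 3811 and 3733 in WT PBS kidneys. Of the treated kidneys, 4 were below all PBS kidneys and kidney 2 was within their range. Its log2 fold change was -0.24 (standard error 0.10, adjusted p = 0.262).

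mt-Co1 had 9415 to 11500 CPM in WT rCD5L kidneys and 10950 to 15360 in WT PBS kidneys (-0.22, adjusted p = 0.234). For mt-Cytb, the PBS mean was 5711 ± 966 CPM and the rCD5L mean 4654 ± 601 CPM (SD over 5 kidneys each). Its log2 fold change was -0.29 and its adjusted p 0.220 (edgeR). mt-Nd6 was at -0.24 (adjusted p = 0.325) and mt-Atp6 at -0.31 (adjusted p = 0.286). The mt-rRNAs differed less, at -0.11 for mt-Rnr1 (adjusted p = 0.568) and -0.09 for mt-Rnr2 (adjusted p = 0.715). Of the tRNAs, mt-Tp had 52.89 to 67.00 CPM with rCD5L and 53.77 to 83.70 with PBS (-0.31, adjusted p = 0.178). mt-Tg, with the largest log2 fold change of the tRNAs, had 0.523 to 1.273 CPM with rCD5L and 0.322 to 0.8287 with PBS, with 2 treated kidneys above all PBS kidneys (0.61, adjusted p = 0.395). For no RNA did the groups separate, and 3.61% of all genes tested did. Proximal tubule markers summed to 3690 to 5840 CPM with rCD5L and 4480 to 9230 with PBS, so the tubule marker sum and the mt-mRNA sum lay lower in the same group. Its part in these values was not tested. Without WT PBS kidney 3, which had the highest marker and mt-mRNA sums of its group, the median of the mt-mRNAs was -0.14.

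The fourth comparison was CD5L KO against WT kidneys that all received rCD5L. All 12 mt-mRNAs tested had positive log2 fold changes, with a median of 1.17, and each had an unadjusted p under 0.05. Counting rRNAs and tRNAs, 17 of 26 RNAs did, against 17.8% of all genes, and none of the 26 passed the adjusted threshold, as 0% of 17360 genes did (edgeR). The smallest adjusted p of these RNAs was 0.2595. mt-Co1 had 12720 to 17580 CPM and 58190 in KO rCD5L kidneys, and 11430, 11500, 10980, 10330 and 9415 in WT rCD5L kidneys. The groups did not overlap with or without kidney 4. The log2 fold change was 1.09 (standard error 0.41, adjusted p = 0.2595), without KO rCD5L kidney 4 it was 0.40 (adjusted p = 0.163), and without kidneys 3 and 4 it was 0.30 (adjusted p = 0.0365).

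mt-Tp also separated these groups, with 93.75, 77.40, 117.9, 277.8 and 83.46 CPM in KO rCD5L kidneys and 67.00, 63.24, 55.59, 52.89 and 53.11 in WT rCD5L kidneys. All knockout kidneys were above all WT kidneys. Its log2 fold change was 1.13 (standard error 0.32, adjusted p = 0.2595), 0.65 (adjusted p = 0.0966) without KO rCD5L kidney 4, and 0.53 (adjusted p = 0.0147) without kidneys 3 and 4. These 2 RNAs were the ones without overlap among 26, against 7.44% of all genes. The remaining named mt-mRNAs were at 1.15 (mt-Cytb), 1.08 (mt-Nd1), 0.98 (mt-Nd6) and 1.17 (mt-Atp6), and without KO rCD5L kidney 4 they were at 0.33, 0.41, 0.23 and 0.44. mt-Rnr1 and mt-Rnr2 were at 1.40 and 1.43, at 1.11 and 1.12 without kidney 4, and at 0.30 and 0.16 without kidneys 3 and 4. The largest tRNA difference was that of mt-Ty, at 1.62 and at 0.75 without kidney 4, with 7.811 CPM in kidney 4, 0.902 to 2.210 in the other knockout kidneys and 0.635 to 1.040 in WT kidneys. The median of the mt-mRNAs was 0.361 without kidney 4 and 0.20 without kidneys 3 and 4. Cell type markers differed here too. Outside kidneys 3 and 4, proximal tubule markers summed to 4683, 4967 and 5477 CPM in knockout kidneys and to 3690 to 5840 in WT kidneys, fibroblast and myofibroblast markers to 2451, 2981 and 3896 and 3690 to 5040, and endothelium markers to 586.7, 613.6 and 644.9 and 686 to 743. The first list overlapped, the second nearly separated the groups and the third was lower in each of these knockout kidneys, and their part in the mitochondrial RNA levels was not tested.

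**Figure D5:**
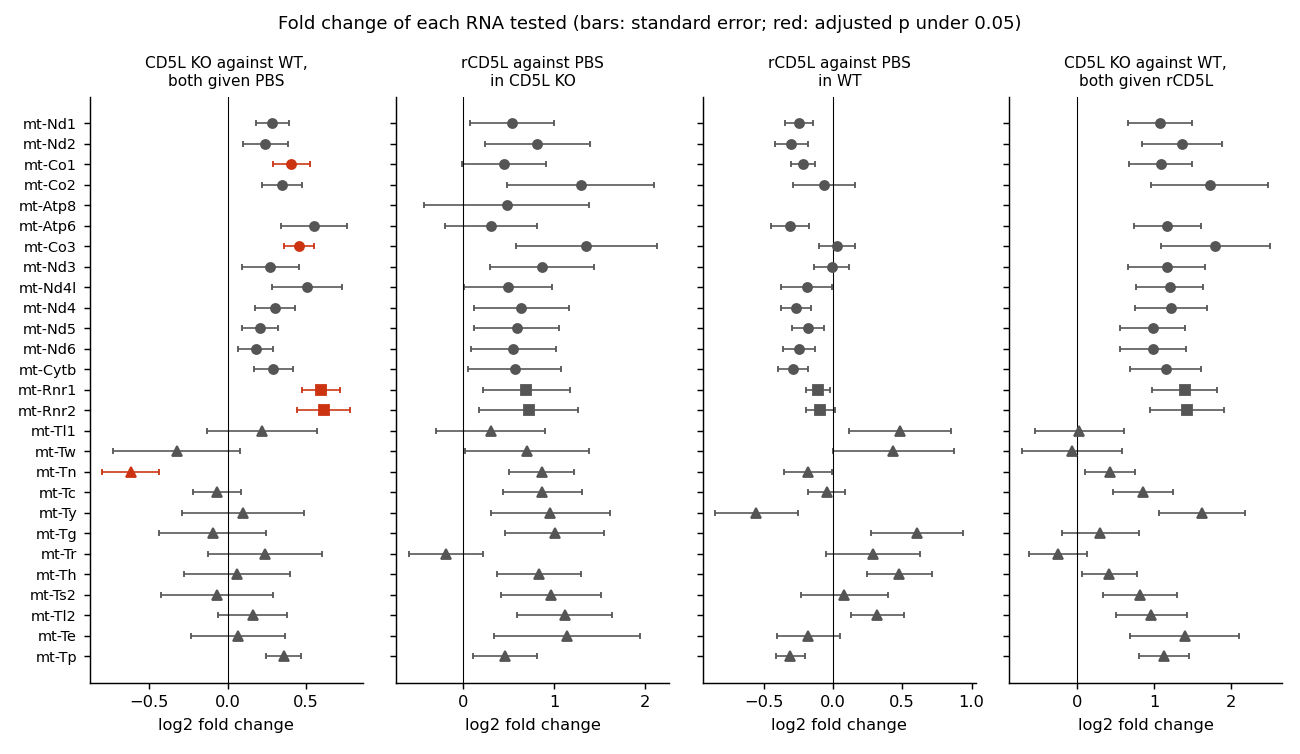
Log2 fold change of each mitochondrial RNA tested in 4 comparisons, with mRNAs as circles, rRNAs as squares and tRNAs as triangles, bars for the standard error, red for an adjusted p under 0.05, and a separate horizontal scale in each panel. The 5 red symbols are all in the first panel, and the bars are widest in the panels that hold KO rCD5L kidney 4.

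The interaction asked whether rCD5L moved mitochondrial RNA differently in CD5L KO and WT kidneys. None of the 27 RNAs tested passed, and 0% of 18454 genes did (edgeR). The 13 mt-mRNAs tested all had positive interaction terms, with a median of 0.875, and the median was 0.04 without KO rCD5L kidney 4 and -0.10 without kidneys 3 and 4. mt-Tn was the only RNA at an unadjusted p under 0.05 (1.05, standard error 0.40, unadjusted p = 0.0163, adjusted p = 0.731, and 0.60 without KO rCD5L kidney 4), that is 1 of 27, against 6.25% of all genes.

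Nuclear genes that act on mitochondrial RNA or share its complexes were read from lists chosen by function. Their counts stand beside the share over all genes tested, of which 10.5% passed and 5.13% were higher. In KO PBS against WT PBS kidneys, 3 of 17 genes of mitochondrial transcription and DNA maintenance passed, all higher. They were Mterf4, a factor of the mitochondrial ribosome's assembly (log2 fold change 0.37), Tfam, which packs mitochondrial DNA and opens its promoters (0.21, adjusted p = 0.0292), and Tfb2m, the other promoter factor (0.18, adjusted p = 0.04998). The RNA polymerase itself, Polrmt, was at -0.12 (adjusted p = 0.272). Of 28 genes of RNA processing, stability and decay, 3 passed, all higher, a share close to that over all genes, namely Trmt10c, a subunit of the enzyme that cuts tRNA 5′ ends (0.32), Fastkd2, an RNA-binding protein of the large ribosomal subunit (0.26), and Trnt1, which adds the CCA end to tRNAs (0.20). Lrpprc, which holds mt-mRNAs stable, was at -0.04 (adjusted p = 0.743).

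Of the 17 mitochondrial aminoacyl-tRNA synthetases, Lars2, for leucine, was higher at 1.25 (adjusted p = 0.0262) and Tars2, for threonine, lower at -0.30 (adjusted p = 0.0246). Lars2 had 14874 counts in KO PBS kidney 1 and 27961 in KO rCD5L kidney 3, the kidneys with high mt-rRNA and CT010467.1, against 2500 to 5674 in the other 17. Of the nuclear subunits of the complexes, 19 of 38 for complex I, 5 of 9 for complex III, 8 of 15 for complex IV and 10 of 17 for complex V passed as higher in KO PBS kidneys and 0 as lower. The complex I list was taken by symbol and holds Ndufa4, which belongs to complex IV and was among those that passed, and its paralogue Ndufa4l2, which is not a complex I subunit. Of the genes that did not pass, Ndufa4l2, Cox4i2 and Cox6b2 had negative log2 fold changes. Their median log2 fold changes were 0.265, 0.307, 0.293 and 0.254, beside 0.297 for the mt-mRNAs. Of 6 regulators of mitochondrial biogenesis, none passed, and Ppargc1a was at -0.09 (adjusted p = 0.509). Of 13 nuclear genes taken as a measure of mitochondrial mass, 3 passed, all higher (Tomm20, Tomm22 and Vdac3, proteins of the outer membrane), and the median of the list was 0.05. Cs, the citrate synthase of the matrix, was at -0.20 (adjusted p = 0.0506), with each KO PBS kidney below each WT PBS kidney. Of the 6 copies on chromosome 1 tested, Gm28437 and Gm10925 were higher. In the fit over all 19 kidneys, none of the genes of these lists passed in this comparison. In the other comparisons, each fitted on all kidneys of its own groups, no gene of these lists passed. For CD5L KO against WT with rCD5L, the fit over all 19 kidneys called 24, 5, 9 and 10 subunits of complexes I, III, IV and V, all higher. That fit holds kidney 4, and its counts are not set beside the share over all genes. With rCD5L in WT kidneys, the medians of the same 4 groups of subunits were -0.17, -0.138, -0.184 and -0.158, beside -0.231 for the mt-mRNAs, and both comparisons use the same WT PBS kidneys. With rCD5L in CD5L KO kidneys they were 0.238, 0.256, 0.194 and 0.201, and without KO rCD5L kidney 4 they were -0.0732, -0.0664, -0.0806 and -0.0858, so their direction rested on that kidney. For CD5L KO against WT with rCD5L they were 0.651, 0.777, 0.69 and 0.688, and 0.323, 0.389, 0.327 and 0.327 without it. Calls and medians of these lists without kidneys 3 and 4 together are not given here.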

How the data were processed

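Whole-kidney RNA-seq of 19 mice was used. The authors trimmed paired-end reads of random-primed libraries with Trimmomatic, aligned them to GRCm38/mm10 with HISAT2, counted them with featureCounts and tested genes with DESeq2. Versions, strand setting and the treatment of reads with several matches are not given in the sources used here. The deposited counts are per gene without normalization, and the deposited FPKM values are the authors' own scaling of them and were used only for levels per gene length. The number of table columns without a sample was 0.

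The quasi-likelihood test of edgeR 4.0.16 (glmQLFit and glmQLFTest under R 4.3.3) was run with TMM scaling, after filterByExpr at a count minimum of 10, on the 2 groups compared, or on all 19 kidneys for the interaction. Benjamini-Hochberg adjustment covered all genes tested, and genes with adjusted p under 0.05 were called. Groups and replicate numbers came from the labels. The RNAs, lists and tests were chosen with earlier results of these data known. Values are given in each comparison for mt-Co1, mt-Cytb, mt-Nd1, mt-Atp6, mt-Nd6, mt-Rnr1 and mt-Rnr2, for each other RNA that passed, and for the tRNA with the largest fold change. Further RNAs were named after their values were seen. Sums, ratios and windows carry no test. The smallest chi-square per degree of freedom between kidneys of a group was 6.33, so none was counted as a repeat. A count of 0 allows up to 3 counts, and this covers counting error only. On simulated counts with 200 genes changed by a log2 fold of 1, 84.5% were recovered for CD5L KO against WT with PBS. For rCD5L in CD5L KO 45.5% were, for rCD5L in WT 83.0%, and for CD5L KO against WT with rCD5L 66.5%. The simulated fold is larger than those of the mitochondrial RNAs called. Mitochondrial RNAs were not among the 200 and no outlying kidney was simulated, so these shares are not recovery rates for those RNAs. Alternatives tried were leaving the filter off, RLE scaling, DESeq2 1.42.0, a fit over all 19 kidneys, a block for the replicate number, library sizes without mitochondrial genes, a gene-length offset (lowess span 0.3) and leaving out each kidney in turn. Leaving out KO rCD5L kidneys 3 and 4 together, or KO PBS kidneys 1 and 3 together, was chosen after seeing the data.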

Additional observations from a re-analysis of the deposited data

Results flagged for a closer look

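In 64 groups of 4 or 5 kidneys, the gap between an extreme kidney and its nearest neighbour was set against the range of the group. Of these gaps, 16 passed the 95% limit of Dixon's test. Some RNAs were tested because their fold change was the largest of the tRNAs, such as mt-Te, and the class sums repeat single RNAs. The chance rate of about 1 in 20 groups therefore does not apply to this list. Of the 16, 13 lay in the KO rCD5L group. In KO rCD5L kidney 4, the levels in CPM were 58190 for mt-Co1, 28690 for mt-Cytb, 17550 for mt-Nd1, 4235 for mt-Nd6, 631.3 for mt-Co3, 143 for mt-Atp6, 94.96 for mt-Te, 16 for mt-Tn, 7.811 for mt-Ty and 2.987 for mt-Tg. The summed mt-mRNA level of this kidney was 147800 CPM and the summed mt-tRNA level 486 CPM. These flags share 1 kidney and are not independent.

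In KO rCD5L kidney 3, the ratio of 5.434 mt-rRNA counts per 100 mt-mRNA counts was flagged. In WT PBS kidney 3, mt-Nd1 at 4968 CPM, mt-Nd6 at 1245 CPM and mt-Te at 16.07 CPM were flagged, and this kidney had the highest proximal tubule marker sum of its group.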

How the results depend on the processing

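For CD5L KO against WT with PBS, the 5 RNAs called became 0 with all 19 kidneys in 1 fit, 11 with the replicate number as a block, 2 with the gene-length offset and 2 to 9 when 1 kidney was left out, with 2 reached without KO PBS kidney 3, WT PBS kidney 1 or WT PBS kidney 2 and 9 without WT PBS kidney 3. They became 0 without KO PBS kidneys 1 and 3. The cause was not tested, but the last fits hold fewer kidneys. The correlations of same-numbered kidneys' deviations ran from -0.187 to 0.174, so the numbers were not taken as a pairing. With the length offset mt-Nd6 was at -0.00644.

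For rCD5L in CD5L KO, leaving out 1 kidney moved the mt-mRNA median from -0.178 to 0.741, mt-Co1 from -0.224 to 0.604, mt-Cytb from -0.241 to 0.728, mt-Nd1 from -0.114 to 0.702, mt-Atp6 from -0.411 to 0.558, mt-Nd6 from -0.191 to 0.701 and mt-Te from -0.357 to 1.48. Each low value was without KO rCD5L kidney 4. Without kidneys 3 and 4, the median was -0.336, mt-Co1 -0.33, mt-Cytb -0.332, mt-Nd1 -0.336, mt-Atp6 -0.644, mt-Nd6 -0.217, mt-Te -0.298, mt-Rnr1 -0.399 and mt-Rnr2 -0.548.

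For CD5L KO against WT with rCD5L, the 0 RNAs called became 1 with DESeq2 (mt-Tp), 7 with all 19 kidneys in 1 fit and 2 without kidneys 3 and 4. Counts of calls under alternatives stand here without the share over all genes. The mt-mRNA median ran from 0.361 to 1.36 with 1 kidney left out and was 0.2 without kidneys 3 and 4. For the interaction, the median ran from 0.0433 to 1.04, mt-Co1 from -0.00768 to 0.847 and mt-Atp6 from -0.106 to 0.875. Without kidneys 3 and 4, the median was -0.0975, mt-Co1 -0.107, mt-Cytb -0.0408, mt-Nd1 -0.0877, mt-Atp6 -0.331, mt-Rnr1 -0.286 and mt-Rnr2 -0.451. For the 5 RNAs called, 36 of 85 values under alternatives lost the call. Of 777 values of single RNAs in all, 12 gained a call and 23 changed sign. Depth limits the RNAs near 1 CPM, such as mt-Ty, mt-Tg and mt-Atp8.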
